A study of Mus musculus with 8 samples.

Results

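The cytosolic ribosomal protein genes were followed in subcutaneous KPC tumours, a mouse model of pancreatic cancer. Genes were taken by symbol (Rpl or Rps with a number and an optional a, x, y or l, together with Rplp0 to Rplp2 and Rpsa) if they had at least 10 reads in each of the 8 libraries. The symbols matched 89 of the 57132 rows in the table, and 85 of them, the members, met the read minimum. Of the members, 50 carried a large subunit symbol and 35 a small subunit symbol. They comprised 77 subunit genes, the minor paralogues Rps4l, Rpl22l1, Rps27l and Rpl39l, the assembly factor Rpl7l1, and the retrocopies Rpl6l, Rps3a2 and Rps3a3. Rps12l1 and Rpl10l had 0 reads in all 8 libraries, and Rpl32l had 6 to 17 reads in PDT libraries and 0 to 18 in PBS libraries. Rpl3l, the paralogue of striated muscle, had 12 to 426 reads in PDT libraries and 0 to 44 in PBS libraries.

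The PDT group (photodynamic therapy, 4 samples) came from tumour-bearing mice given Ce6@D4-EV and then light. The photosensitiser chlorin e6 (Ce6) forms reactive oxygen species under light, and D4-EV is the submitters' name for the vehicle that carries it. The PBS group (4 samples) came from tumour-bearing mice given buffered saline, and no arm with light alone or with unlit carrier was analysed here. The labels call the tissue sorted without naming a gate, and they do not give strain, age, harvest time, batch or whether samples came from separate animals. P-values therefore measure the spread between these samples, which may be technical. Ribosomal RNA was depleted before sequencing, and summed gene counts were 39026840 to 48804713 in PDT libraries and 35742024 to 40337306 in PBS libraries. Levels are given as CPM, the reads of a gene scaled to a common library size by trimmed means (TMM).

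Each ribosome joins a small subunit, which reads the mRNA, to a large subunit, which forms peptide bonds and passes the nascent chain through an exit tunnel. Most subunit proteins are present in a single copy per ribosome, and their genes are usually expressed together and at high levels. Many of their mRNAs begin with a C followed by a run of pyrimidines, the TOP tract (terminal oligopyrimidine), through which mTOR and Larp1 control their translation. Some free subunit proteins also act outside the ribosome, as when Rpl5 and Rpl11 bind Mdm2 and so stabilise p53.

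Rps4l was the only member past the threshold, and it was higher in PDT tumours. This gene is a small subunit paralogue of the X-linked Rps4x, and the GENCODE M21 annotation lists it as a transcribed processed pseudogene on chromosome 6, plus strand. Its 789-base transcript aligned to the coding sequence of Rps4x with 79.7% identity, and the longest run of identical bases was 35. The first 90 bases of both are shown because they let a reader see how far reads of the paralogues can be told apart. Capitals mark the 15 bases that differ, and both sequences come from GENCODE M21 transcripts (GRCm38).
Rps4l: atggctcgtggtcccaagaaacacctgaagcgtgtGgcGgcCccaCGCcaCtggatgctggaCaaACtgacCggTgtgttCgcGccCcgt
Rps4x: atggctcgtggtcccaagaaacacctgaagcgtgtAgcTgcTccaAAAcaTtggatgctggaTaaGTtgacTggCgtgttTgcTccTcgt

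Rps4l (ENSMUSG00000063171) had 2314, 1930, 1818 and 1464 reads in PDT 1 to PDT 4, against 746, 658, 602 and 816 reads in PBS 1 to PBS 4. On the scaled level it averaged 44.2 ± 7.29 CPM in PDT and 18.9 ± 3.87 CPM in PBS (SD, n = 4 each), and the groups did not overlap. The rise was 2.34-fold, a log2 fold change of 1.23 ± 0.18 (SE, adjusted p = 0.0300 by edgeR's quasi-likelihood test with Benjamini-Hochberg adjustment over 16588 genes), and Rps4l ranked 11 by p among all tested genes. Among the members 1 of 85 was called higher and 0 lower, where 0.163% and 0.0723% of all tested genes were called. The direction held in every alternative run, but the call did not. After GC content and transcript length were corrected for, the log2 fold change was 0.85 with an adjusted p of 0.0923 in edgeR, and the GC content of Rps4l was 61.3%, against 47.7% for the Rps4x coding sequence. Without PDT 1, PDT 3, PDT 4, PBS 1, PBS 2 or PBS 3 the adjusted p in edgeR was 0.119, 0.0997, 0.0711, 0.0571, 0.104 and 0.0765 in that order, and without PDT 2 or PBS 4 it was 0.0378 and 0.0235.

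Rps4x, the main gene, showed no such difference. It had 3925, 2916, 2569 and 2333 CPM in PDT 1 to PDT 4, against 2722, 2331, 2783 and 3300 CPM in PBS 1 to PBS 4. The groups overlapped, and the log2 fold change was 0.08 ± 0.18 (SE, adjusted p = 0.886 by edgeR). For each 100 reads of Rps4x there were 1.31 to 1.69 reads of Rps4l in PDT libraries and 0.569 to 0.746 in PBS libraries. Tmtc1, a gene that overlaps Rps4l on the opposite strand in the annotation, had 38 to 124 reads in PDT libraries and 0 to 126 in PBS libraries. The strand setting of the counting is not given in the sources used here. The part of opposite-strand reads in the Rps4l row was not tested.

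The ratio of a paralogue to its main gene removes what the pair shares in a library, and 6 pairs had enough reads in all libraries. It does not remove what differs within a pair, such as the GC content of Rps4l and Rps4x. The ratios were not run under the GC and length correction. The log2 ratio of Rps4l to Rps4x was −6.04 ± 0.16 in PDT and −7.21 ± 0.17 in PBS (SD, n = 4 each). The groups did not overlap, and the difference was 1.17 (two-sided exact permutation p = 0.029, which is the lowest p possible with 70 assignments; adjusted over the 6 pairs, 0.0857). Rps27l, a p53-inducible paralogue of Rps27, gave the other pair whose groups did not overlap. There were 21.95, 26.5, 25.4 and 26.1 reads of Rps27l per 100 reads of Rps27 in PDT 1 to PDT 4, against 20.8, 16.6, 15.1 and 17.8 in PBS 1 to PBS 4. The difference in log2 ratio was 0.51 (exact permutation p = 0.029, 0.0857 after adjustment). No pair passed the adjusted threshold, but neither of these pairs could. Both had the lowest p possible, and while no other pair reached it, that p adjusted to 0.0857 over 6 pairs.

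Neither level behind the Rps27l ratio passed the test. Rps27l averaged 429 ± 71.5 CPM in PDT and 321 ± 58.8 CPM in PBS, a log2 fold change of 0.42 ± 0.16 (SE, adjusted p = 0.226 by edgeR), and the groups overlapped. Rps27 averaged 1741 ± 427 CPM in PDT and 1823 ± 193 CPM in PBS, a log2 fold change of −0.07 ± 0.17. Rpl39l, a paralogue best known from male germ cells, was the member that varied most, with an SD of 1.19 in log2 CPM over the 8 libraries. It had 32.5, 8.72, 14.9 and 23.0 CPM in PDT 1 to PDT 4, against 10.2, 2.10, 16.5 and 8.02 CPM in PBS 1 to PBS 4. Its log2 ratio to Rpl39 differed by 1.35 with overlapping groups (exact permutation p = 0.0857, 0.171 after adjustment).

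The remaining pairs overlapped as well. Rpl22l1, the paralogue of Rpl22, averaged 114 ± 29.8 CPM in PDT and 84.6 ± 14.3 CPM in PBS, and its log2 ratio to Rpl22 differed by 0.16 (exact permutation p = 0.457). Rpl22 itself averaged 924 ± 211 CPM in PDT and 772 ± 104 CPM in PBS. Rpl36al lies outside the symbol rule and had 38 to 79 reads in PDT libraries and 12 to 94 in PBS libraries. Its log2 ratio to Rpl36a differed by 0.13 (exact permutation p = 0.914). Rpl7l1, which works in large subunit assembly and resembles Rpl7, had 141, 138, 140 and 159 CPM in PDT 1 to PDT 4, against 118, 123, 119 and 121 CPM in PBS 1 to PBS 4. These levels did not overlap, although the log2 fold change was only 0.26 ± 0.11 (SE, adjusted p = 0.245 by edgeR), and its log2 ratio to Rpl7 differed by 0.21 with overlapping groups.

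**Figure D1:**
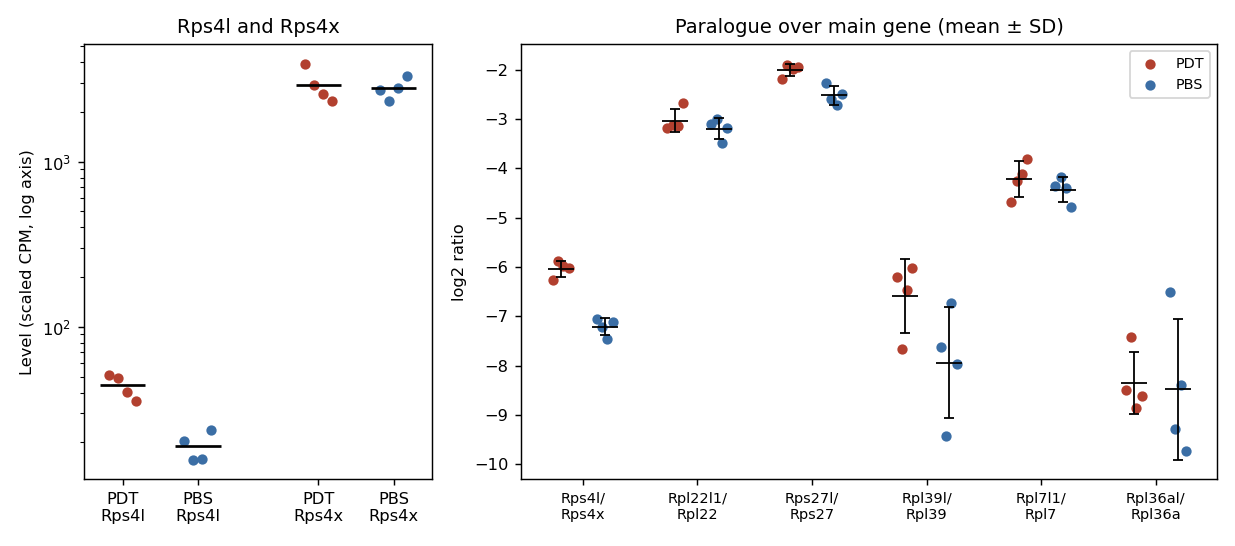
Left, scaled level in CPM (log axis) of Rps4l and Rps4x in each library, with group means as lines. Right, log2 ratio of each paralogue to its main gene per library, with mean ± SD over 4 libraries. PDT libraries lie above all PBS libraries for Rps4l over Rps4x (mean −6.04 in PDT and −7.21 in PBS) and for Rps27l over Rps27.

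Across all members the estimates leaned upward without reaching the threshold gene by gene. By estimate 67 of 85 members were higher in PDT, where 49.8% of all tested genes were. The median log2 fold change was 0.23 for the members, with a middle range of 0.04 to 0.53, beside a median of −0.002 for all tested genes. An unadjusted edgeR p under 0.05 was reached upward by 23 members, where 8.63% of all genes reached it, and downward by 1, where 7.87% did. Groups that did not overlap were found for 2 members with PDT above (Rps4l and Rpl7l1) and for 1 with PDT below (Rps3a3), where 5% and 5.12% of all genes showed this. DESeq2 called 6 members higher (Rps4l, Rpl11, Rpl13a, Rpl23a, Rps9 and Rpl23), where 3.12% of all genes were called, and 0 lower, where 2.12% were. The limma-voom fit called Rps4l alone, where 0.603% of all genes were called higher. Of the 1858 tested genes with a mean of at least 100 CPM, 901 were higher by estimate. Among these 1858, an unadjusted edgeR p under 0.05 was reached upward by 235 and downward by 241. DESeq2 called 99 of them higher and 75 lower, and groups did not overlap for 124 above and 159 below. Members vary together and are not independent, so no test was made of their counts. The lean depended on the processing. After the GC and length correction the member median was −0.03 and only 38 of 85 members were higher, beside a median of −0.08 over all genes. Without PDT 1 the median was 0.11. With 1 library left out, edgeR called 7 members without PBS 4 and 2 without PDT 2, and 0 without each of the others. In the same fits 122 of all genes (0.712%) were called without PBS 4, 112 (0.656%) without PDT 2 and 0 to 10 without each of the others.

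**Figure D2:**
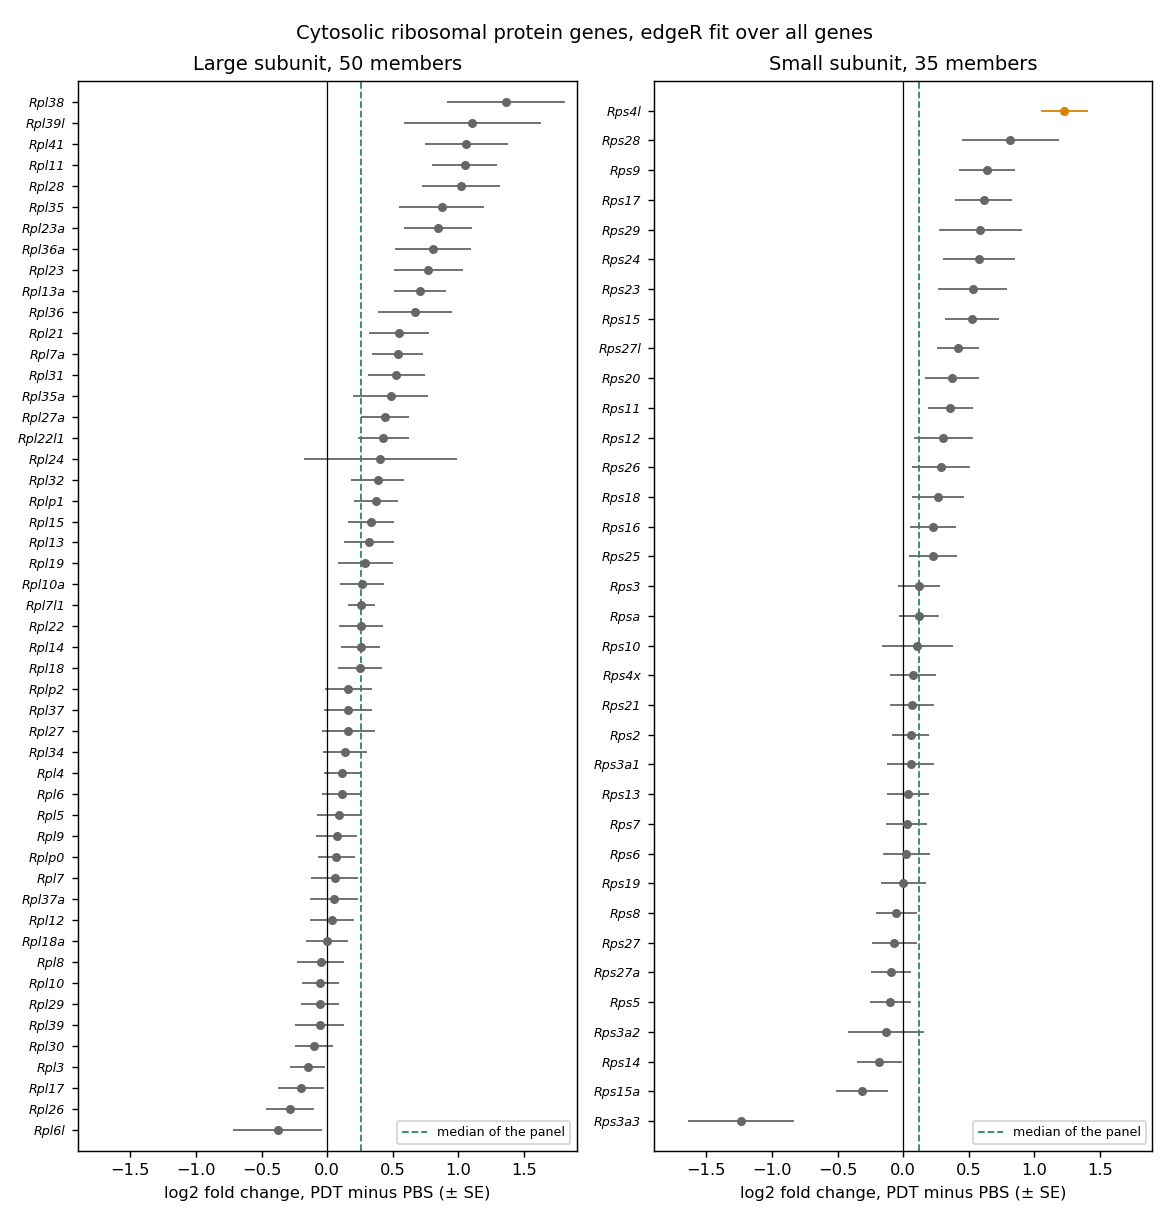
Log2 fold change, PDT minus PBS, of the 50 large subunit members (left) and the 35 small subunit members (right), with bars of 1 SE; the dashed line is the panel's median and 0 is the solid line. Rps4l, in orange, is the only member past an adjusted p of 0.05, and the medians are 0.26 (large) and 0.12 (small).

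Large and small subunit members were set side by side without a test. By estimate 40 of 50 large subunit members were higher (median log2 fold change 0.26), and so were 27 of 35 small subunit members (median 0.12). Of all tested genes 49.8% were higher by estimate. An unadjusted edgeR p under 0.05 was reached upward by 17 large and 6 small subunit members, where 8.63% of all genes reached it. Downward it was reached by 0 large and 1 small subunit members, where 7.87% of all genes did. Without PDT 1 these medians were 0.15 and 0.02, without PBS 2 they were 0.20 and 0.06, without PBS 4 they were 0.35 and 0.18, and after the GC and length correction they were −0.02 and −0.15. Large subunit members took 9.15%, 6.98%, 6.88% and 8.37% of all reads in PDT 1 to PDT 4, against 6.95%, 6.10%, 6.98% and 8.12% in PBS 1 to PBS 4. Small subunit members took 8.19%, 6.43%, 5.84% and 6.61% in PDT 1 to PDT 4, against 6.65%, 5.47%, 6.19% and 7.06% in PBS 1 to PBS 4. Both classes overlapped between the groups. The ratio of small to large subunit reads was 0.863 ± 0.0573 in PDT and 0.903 ± 0.0384 in PBS (SD, n = 4 each), and PDT 4 had the lowest value, 0.789.

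Together the members took 14.6 ± 2.05% of reads in PDT and 13.4 ± 1.48% in PBS (SD, n = 4 each). PDT 1 stood highest at 17.3%, PBS 2 lowest at 11.6%, and PDT 3, at 12.7%, lay under 3 of the 4 PBS libraries. The difference of 1.23 percentage points was 0.325 without PDT 1 and 0.631 without PBS 2, and 1.64, 1.86 and 1.83 without PDT 2, PDT 3 or PBS 4. In bulk tissue more cells of a kind that is rich in these mRNAs cannot be told apart from more of the mRNA per cell.

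**Figure D3:**
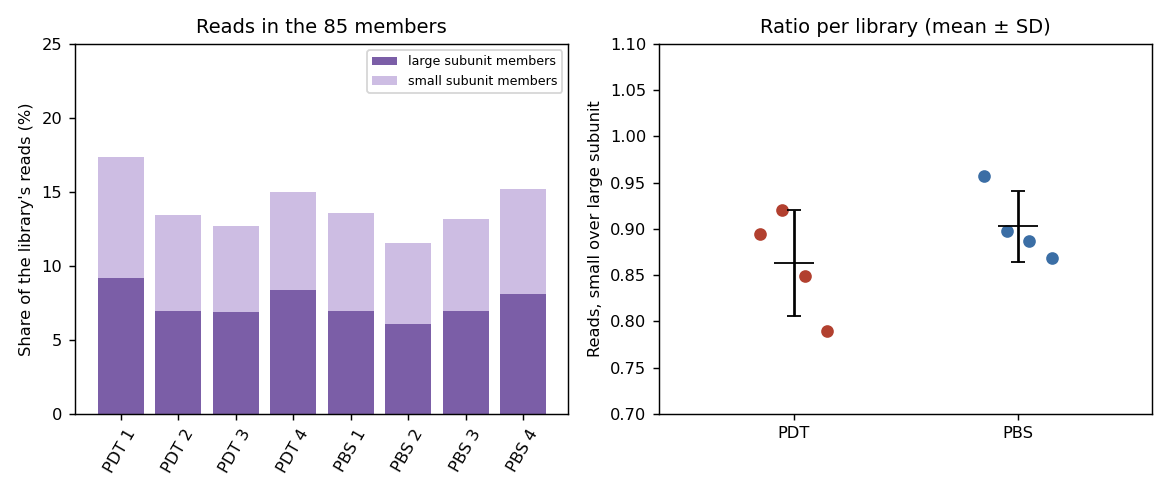
Left, share of each library's reads (%) in large (dark) and small (light) subunit members. Right, ratio of small to large subunit reads per library with mean ± SD over 4 libraries. The summed share runs between 12.7% and 17.3% in PDT and between 11.6% and 15.2% in PBS, and both panels overlap.

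The members were not moved evenly across libraries. PBS 4 was the highest PBS library for 66 of the 85 members and exceeded the lowest PDT library for 82 of them. Within PDT, the highest library was PDT 1 for 57 members and PDT 4 for 25. Among the 23 members with an unadjusted p under 0.05 upward, which are a selection by this same contrast, PBS 4 was the highest PBS library for 21 and PDT 4 the highest PDT library for 14. In 20 of these 23, all PDT libraries lay above PBS 1 to PBS 3. The 18S ribosomal RNA gene Rn18s-rs5 took 1.34% of reads in PDT 4 and 0.546% in PBS 4, the largest shares of their groups. In the other libraries it took 0.275% to 0.363% in PDT, with 0.363% in PDT 1, and 0.241% to 0.341% in PBS. Its part in the result was not tested. A fit without Rn18s-rs5 and the mitochondrial genes kept the Rps4l call, with a member median of 0.22. That fit left the counts of the members unchanged. Rows named as pseudogenes of these genes held 0.572 reads per 100 member reads in PDT 4. They held 1.45 to 1.65 in the other PDT libraries and 1.52 to 1.61 in PBS libraries. With pseudogene rows added to their members, Rps4l was still the only call and the member median was 0.22. Why PDT 4 differed in this was not tested.

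**Figure D4:**
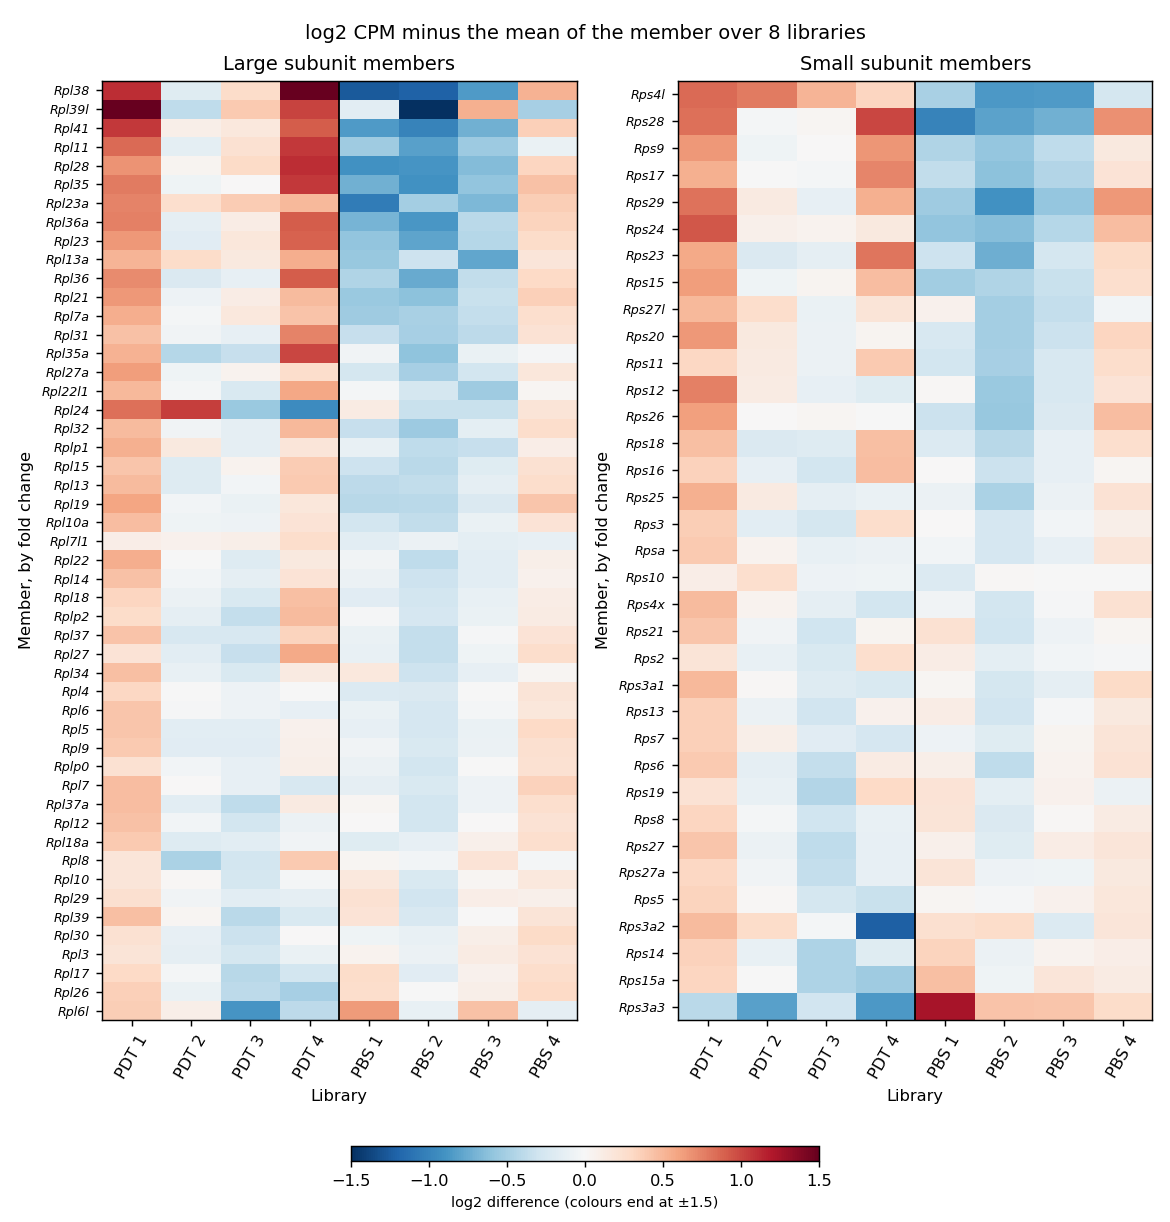
Log2 CPM of each member minus its own mean over the 8 libraries, large subunit on the left and small subunit on the right, members ordered by fold change and PDT libraries left of PBS libraries (colour scale in log2 units, ends at ±1.5). Many upper rows are red in PDT 1 and PDT 4, blue in PBS 1 to PBS 3 and pale red in PBS 4, but Rps4l is red in all PDT libraries and blue in all PBS libraries, Rpl39l is red in PBS 3 and blue in PBS 4, and Rpl11 is pale blue in PBS 4.

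Rpl38, a large subunit protein whose loss in mice alters the body axis, had the largest estimate. It had 556, 226, 311 and 780 CPM in PDT 1 to PDT 4, against 108, 111, 142 and 368 CPM in PBS 1 to PBS 4. PBS 4 lay above PDT 2 and PDT 3. The log2 fold change was 1.36 ± 0.45 (SE, adjusted p = 0.163 by edgeR), and 1.98 with an adjusted p of 0.0455 without PBS 4. Rpl41, the shortest ribosomal protein, had 5668, 2908, 3032 and 5123 CPM in PDT 1 to PDT 4, against 1512, 1357, 1658 and 3499 CPM in PBS 1 to PBS 4. PBS 4 again lay above PDT 2 and PDT 3, and the log2 fold change was 1.06 ± 0.32 (adjusted p = 0.134 by edgeR, and 0.0313 without PBS 4). Rps28, a small subunit protein near the mRNA exit, had 1186, 657, 684 and 1339 CPM in PDT 1 to PDT 4, against 332, 384, 404 and 1075 CPM in PBS 1 to PBS 4. Its log2 fold change was 0.82 ± 0.37 (adjusted p = 0.297 by edgeR, and 0.0441 without PBS 4). With any other library left out, edgeR called none of Rpl38, Rpl41 and Rps28. DESeq2 on all libraries did not call them either (adjusted p = 0.182, 0.122 and 0.399 in that order).

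Rpl11 had the smallest p after Rps4l. It had 1258, 632, 817 and 1454 CPM in PDT 1 to PDT 4, against 481, 398, 480 and 652 CPM in PBS 1 to PBS 4, so that only PDT 2 fell under PBS 4. The log2 fold change was 1.05 ± 0.25 (SE, adjusted p = 0.0890 by edgeR and 0.000777 by DESeq2, and 0.0410 by edgeR without PDT 2). Rpl5, which binds 5S ribosomal RNA together with Rpl11, averaged 1782 ± 351 CPM in PDT and 1675 ± 295 CPM in PBS, a log2 fold change of 0.09 ± 0.17. Rpl28, a large subunit protein, had 1010, 650, 772 and 1362 CPM in PDT 1 to PDT 4, against 337, 340, 401 and 792 CPM in PBS 1 to PBS 4. PBS 4 again reached into the PDT range, and the log2 fold change was 1.02 ± 0.30 (adjusted p = 0.125 by edgeR, and 0.0313 without PBS 4). Rpl13a, which in human cells also takes part in translational silencing after interferon gamma, averaged 74.7 ± 9.82 CPM in PDT and 45.8 ± 13.9 CPM in PBS, a log2 fold change of 0.70 ± 0.20 (adjusted p = 0.112 by edgeR, and 0.0380 without PBS 4). With any other library left out, edgeR called neither Rpl28 nor Rpl13a. Of the left-out libraries, only PDT 2 gave an edgeR call for Rpl11. DESeq2 on all libraries gave an adjusted p of 0.112 for Rpl28 and 0.0198 for Rpl13a.

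Other functional groups differed in their estimates. The 4 proteins of the stalk that recruits translation factors, Rplp0, Rplp1, Rplp2 and Rpl12, had a median log2 fold change of 0.11. Among them Rplp1 averaged 3534 ± 681 CPM in PDT and 2730 ± 425 CPM in PBS, a log2 fold change of 0.37 ± 0.17 (SE, adjusted p = 0.287 by edgeR). Rplp0, the stalk base often used as a reference gene, averaged 5283 ± 576 CPM in PDT and 5032 ± 747 CPM in PBS, and Rplp2 averaged 1208 ± 310 CPM in PDT and 1082 ± 116 CPM in PBS. At the rim of the exit tunnel 4 of 7 genes were higher by estimate, with a range of −0.28 (Rpl26) to 0.87 (Rpl35). There 3 of 7 had an unadjusted edgeR p under 0.05 upward, where 8.63% of all genes did, namely Rpl23a (log2 fold change 0.84), Rpl35 (0.87) and Rpl31 (0.53), and DESeq2 called 1, Rpl23a. These 3 were named after their values were seen, and edgeR called none of them. Rps6, the S6 kinase substrate, averaged 1925 ± 429 CPM in PDT and 1894 ± 314 CPM in PBS. Rpsa, also known as the laminin receptor, averaged 5285 ± 896 CPM in PDT and 4864 ± 621 CPM in PBS. Of the 18 members mutated in human Diamond-Blackfan anaemia 16 were higher by estimate, where 67 of all 85 members and 49.8% of all genes were. EdgeR called 0 of the 18, an unadjusted p under 0.05 upward was reached by 5, where 23 of 85 members and 8.63% of all genes reached it, and DESeq2 called 1 higher, where 3.12% of all genes were called.

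The lowest estimate was that of Rps3a3, a retrocopy of Rps3a1, with 74, 48, 80 and 48 reads in PDT 1 to PDT 4, against 192, 124, 111 and 91 reads in PBS 1 to PBS 4. The groups did not overlap, and the log2 fold change was −1.24 ± 0.40 (SE, adjusted p = 0.159 by edgeR). Its transcript is 98.9% identical to the coding sequence of Rps3a1, so its reads are hard to tell apart from those of the parent gene, and the same holds for Rps3a2 (99.5%) and for Rpl6l (98.7% identical to Rpl6). Among subunit genes the smallest p downward belonged to Rps15a, a small subunit protein, with 2480 ± 706 CPM in PDT and 3079 ± 472 CPM in PBS, a log2 fold change of −0.31 ± 0.20. Rpl26, at the exit tunnel, had a log2 fold change of −0.28 ± 0.18, and Rpl17, also at the exit tunnel, one of −0.20 ± 0.17. None of these had an adjusted p under 0.05 in edgeR.

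Levels per kilobase of coding sequence spanned a wide range, although ribosomes hold most of these proteins in equal number. Of the 77 subunit genes 70 lay between 1000 and 10000 CPM per kilobase, and the median was 3310. The 3 highest were Rpl41 at 41263, Rpl39 at 11639 and Rps12 at 10345 CPM per kilobase. Coding lengths leave out the untranslated ends, which raises the value of a gene as short as Rpl41. The 4 subunit genes under 1000 CPM per kilobase were Rpl24 (2.99), Rps10 (8.31), Rpl13a (98.9) and Rpl23a (692), of which Rps10 and Rpl23a were singled out after their values were seen. Rpl24 had 26 to 104 reads in PDT libraries and 38 to 51 in PBS libraries. Rps10 had 160 to 198 reads in PDT libraries and 130 to 174 in PBS libraries, whereas rows annotated as its pseudogenes summed to 9425 reads over all libraries against 1323 for Rps10 itself. How the authors' counting assigned reads that fit both a gene and its pseudogene is not given in the sources used here.

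Median estimates were larger for short genes. Among the subunit genes, the 26 with coding lengths of 75 to 405 nucleotides had a median log2 fold change of 0.34, the 25 of 405 to 564 nucleotides 0.25, and the 26 of 576 to 1257 nucleotides 0.08. Across the 85 members the Spearman rank correlation between transcript length and log2 fold change was −0.213, and across the 16274 tested genes with a length it was −0.222. The same correlation with GC content was 0.118 over the members and 0.262 over the tested genes. These are descriptions over genes of the same 8 libraries, which are not independent replicates.

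**Figure D5:**
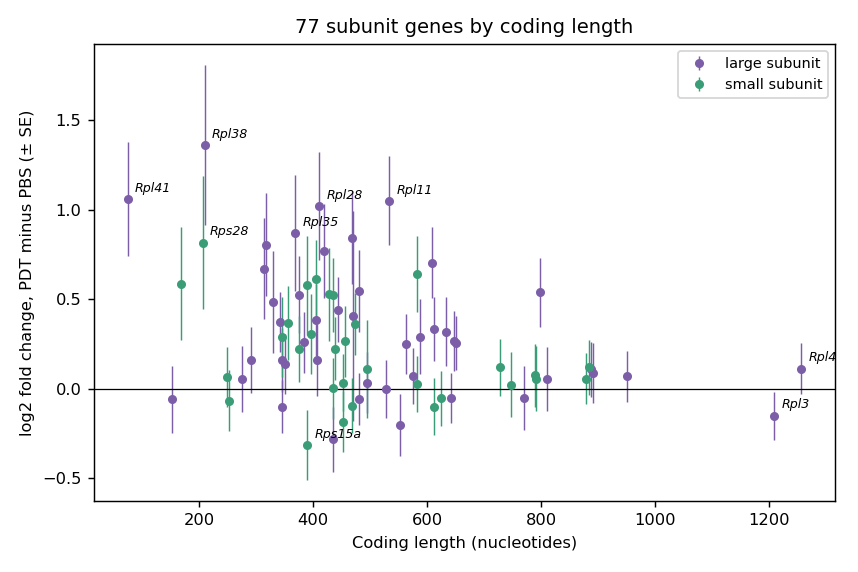
Log2 fold change, PDT minus PBS, of the 77 subunit genes against coding length in nucleotides, with bars of 1 SE and colours for the subunit. The largest estimates are those of Rpl38 (1.36), Rpl41 (1.06), Rpl11 (1.05) and Rpl28 (1.02), with coding lengths of 210, 75, 534 and 411 nucleotides. Rpl3 (−0.15) and Rpl4 (0.11), the longest, lie near 0, but so do short genes such as Rpl39 (−0.06) and Rps27 (−0.07).

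The TOP tract was looked for at annotated transcript starts in RefSeq promoter windows (GRCm38.p6), in which 61 of the 85 members were matched with 72 windows. A tract was a C at the start followed by at least 4 bases that are C or T, on the strand of the gene. It stood at the start of 13 member windows (18.1%), and of 2.51% of all 32851 windows. A wider search took any C followed by 4 such bases within the span from 5 bases before to 10 bases after the annotated start. The whole run had to lie in that span, and the shares were 43.1% of member windows and 18.3% of all windows. The windows below show genes with a tract, 3 from the upper end of the fold changes (Rpl38, Rpl28 and Rpl35) and 3 from the lower (Rps6, Rps27 and Rps15a). Each runs from 10 bases before the annotated start to 20 bases of transcript, and capitals mark the tract.
Rpl38, chr11:114668570-114668599, plus strand: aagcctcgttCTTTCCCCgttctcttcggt
Rpl28, chr7:4792955-4792984, plus strand: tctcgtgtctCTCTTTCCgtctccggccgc
Rpl35, chr2:39005112-39005141, minus strand: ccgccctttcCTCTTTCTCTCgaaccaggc
Rps6, chr4:86857348-86857377, minus strand: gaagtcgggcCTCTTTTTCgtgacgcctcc
Rps27, chr3:90213629-90213658, minus strand: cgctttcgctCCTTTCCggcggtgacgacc
Rps15a, chr7:118116128-118116157, minus strand: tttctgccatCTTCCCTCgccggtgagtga

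Members with and without such a tract had like medians. The 13 had log2 fold changes of −0.31 to 1.36 with a median of 0.25, and 11 were higher by estimate. The 48 matched members without a tract at the start had a range of −0.28 to 1.11 with a median of 0.25, and 45 were higher by estimate. No match says only that the tract is not at the start annotated there.

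Other genes of translation were read from lists in the same fit, and edgeR called 0 members of any of them. Of 22 TOP mRNAs outside the symbol rule, such as elongation factors, 16 were higher by estimate with a median log2 fold change of 0.09. The smallest p was that of Eef1d, an elongation factor subunit, with 299.6 ± 36.7 CPM in PDT and 236 ± 44.8 CPM in PBS (adjusted p = 0.284 by edgeR). Of 30 translation factors 11 were higher, with a median of −0.05, and of 38 ribosome assembly factors 23 were higher, with a median of 0.08. In the assembly list Gar1, a protein of the particles that pseudouridylate ribosomal RNA, had 31.1, 21.8, 26.9 and 58.1 CPM in PDT 1 to PDT 4, against 12.3, 13.4, 12.6 and 21.8 CPM in PBS 1 to PBS 4. Only PDT 2 fell just under PBS 4, and the log2 fold change was 1.20 ± 0.30 (SE, adjusted p = 0.0978 by edgeR and 0.00377 by DESeq2). Eif3g, a subunit of an initiation factor, had 72.5 to 123 CPM in PDT and 45.4 to 70.4 CPM in PBS, a log2 fold change of 0.67 ± 0.19 (adjusted p = 0.112 by edgeR and 0.0195 by DESeq2), without overlap.

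Genes that control the synthesis of ribosomal proteins were mixed, with 6 of 14 higher by estimate. Eif4ebp1, an mTOR target that holds back initiation, averaged 103 ± 29.9 CPM in PDT and 63.0 ± 10.2 CPM in PBS, a log2 fold change of 0.71 ± 0.20 (SE, adjusted p = 0.118 by edgeR and 0.0206 by DESeq2). Of 15 genes of ribosome quality control and stalling 6 were higher by estimate, and Edf1, which binds collided ribosomes, averaged 143 ± 54.5 CPM in PDT and 57.5 ± 33.9 CPM in PBS (log2 fold change 1.32 ± 0.37, adjusted p = 0.112 by edgeR). An unadjusted edgeR p under 0.05 was reached upward by 1 of 22 TOP mRNAs, 1 of 30 translation factors, 5 of 38 assembly factors, 2 of 14 control genes and 1 of 15 quality control genes, where 8.63% of all genes reached it. Downward the counts were 0, 1, 1, 2 and 0 in the same order, where 7.87% of all genes reached it. DESeq2 called 1 translation factor, 3 assembly factors and 1 control gene higher, where 3.12% of all genes were called, and 0 in the other lists.

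Summed markers of other cell types differed in both directions between the groups. Tumour epithelium markers summed to 3038 to 6109 CPM in PDT and 3475 to 7117 CPM in PBS. Of these 6 markers 3 were higher by estimate, and none was at 0 in any library. All 7 macrophage markers were higher by estimate, summing to 808 to 1101 CPM in PDT and 500.1 to 866 CPM in PBS, with the lowest PDT sum in PDT 4 and the highest PBS sum in PBS 1. All 5 neutrophil markers were higher, with sums of 116 to 395 CPM in PDT and 52.4 to 158 CPM in PBS. All 5 erythroid markers were lower, with sums of 591 to 1353 CPM in PDT and 808 to 4437 CPM in PBS, highest in PBS 4. Of 6 fibroblast markers 4 were higher, with sums of 6809 to 7565 CPM in PDT and 4231 to 7992 CPM in PBS, and of 4 endothelial markers 3 were higher, with sums of 51.7 to 72.0 CPM in PDT and 49.1 to 60.2 CPM in PBS. Of 8 T and NK cell markers 7 were higher, with sums of 16.5 to 21.9 CPM in PDT and 4.52 to 13.3 CPM in PBS, and Cd3e, Cd8a, Nkg7, Gzma and Ncr1 were at 0 in at least 1 library. All 6 skeletal muscle markers were higher, with sums of 151 to 3410 CPM in PDT and 53.5 to 1413 CPM in PBS, highest in PDT 2, the library with 426 reads of Rpl3l. B cell markers summed to at most 6.56 CPM in PDT and 5.77 CPM in PBS. Exocrine pancreas markers summed to 67.1 to 103 CPM in PDT and 32.2 to 213 CPM in PBS, with Pnlip at 0 in all libraries. Their part in the differences between members was not tested.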

How the data were processed

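Raw counts for each gene in 8 libraries, with Ensembl identifiers and symbols, were deposited by the authors in 1 table, per the file headers. Libraries were directional and followed removal of ribosomal RNA, per the labels' protocols. Cutadapt 4.6, STAR 2.7.11b and GRCm39 are named in the submitters' processing notes, while how reads were counted, with which strand setting and with what rule for reads that match several genes, is not given in the sources used here. Between 77.9% and 83.8% of counts of 1 to 20 were even, as when both reads of a pair are counted, so counts divided by 2 were tried. The 484 rows with no symbol were kept under their identifiers.

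The main analysis used edgeR 4.0.16 (limma 3.58.1, R 4.3.3): filterByExpr (16588 genes, 0.0694% to 0.109% of reads removed), TMM scaling, a quasi-likelihood fit of PDT minus PBS without covariates, and Benjamini-Hochberg adjustment across every gene tested, called at 0.05. A log2 CPM has a prior count of 2. Ratios were tested by exact permutation. On simulated counts for the PDT minus PBS comparison (15998 genes), the fit recovered 43.1% of genes changed 2-fold. DESeq2 1.42.0, limma-voom, other scalings and filters, a replicate block, added pseudogene rows, a spline correction for GC and length and left-out libraries were alternatives. Lengths, GC and sequences came from GENCODE M21 and RefSeq, matched by identifier or symbol, and not from the authors' build.

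Members and lists were chosen with earlier results of these data known. Genes named are those past the threshold, the 5 smallest p in each direction, the 3 highest and 3 lowest levels per kilobase, tested members of paralogue pairs, the 3 most variable of each subunit, 7 fixed genes (Rplp0, Rplp1, Rplp2, Rpsa, Rps6, Rpl5 and Rpl11) and the smallest p of each other list. Replicates differed far beyond sampling noise, so none was a copy of another.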

Additional observations from a re-analysis of the deposited data

Results flagged for a closer look

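Within a group of 4 libraries, 8 values lay far from the others by Dixon's criterion for 4 values (the gap to the nearest value over the whole range), among 84 groups of values checked. The criterion is set to flag about 1 in 20 groups of independent values. That rate does not apply here, because some genes were picked for their large SD over these libraries. Genes also vary together within a library. In PBS 4, Rpl28 stood at 792 CPM, with the nearest PBS library at 401, Rpl41 at 3499 CPM, with the nearest at 1658, Rpl38 at 368 CPM, with the nearest at 142, and Rps28 at 1075 CPM, with the nearest at 404. In PBS 1 the retrocopy Rps3a3 stood at 5.22 CPM, with the nearest PBS library at 2.96. In PDT 4, Rpl7l1 stood at 159 CPM, with the nearest PDT library at 141, the log2 ratio of Rpl22l1 to Rpl22 at −2.68, with the nearest at −3.13, and Rn18s-rs5 took 1.34% of reads, with the nearest at 0.363%.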

How the results depend on the processing

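The number of members called higher was 1 under RLE and upper quartile scaling, the 1 CPM filter, limma-voom, halved counts, added pseudogene rows and removal of mitochondrial genes and Rn18s. It was 10 with no count filter, 6 with DESeq2, 4 with the replicate block and 0 after the GC and length correction, and 0 to 7 when a library was left out. No member was called lower in any of these. Under the block the calls were Rps4l, Rpl11, Rpl28 and Rpl38, but same-numbered samples correlated at 0.0385 to 0.0690 only and no label pairs them. All genes called in either direction numbered 39 in the main fit, 0.235% of those tested. They numbered 534 (1.95%), 869 (5.24%), 182 (1.1%) and 24 (0.145%) with no filter, DESeq2, the block and the correction. Under RLE, upper quartile scaling, the 1 CPM filter, limma-voom and halved counts the shares were 0.247%, 0.416%, 0.627%, 1.01% and 0.439%. With added pseudogene rows, or without mitochondrial genes and Rn18s, the share was 0.235%. When a library was left out, 0 to 122 genes were called, at most 0.712%. The medians stayed above 0 except after the correction, at −0.0299 for members, −0.0232 for large and −0.15 for small subunit members. They were 0.11 to 0.31, 0.15 to 0.35 and 0.02 to 0.18 when a library was left out. Under limma-voom the small subunit median was 0.05 and the members' 0.15. Over 570 comparisons of 30 named members with an alternative, 527 kept direction and side of the threshold and 19 changed sign, all for members with estimates of −0.07 to 0.16. After the correction these were Rpl7 (−0.10), Rplp0 (−0.20), Rplp2 (−0.17), Rps4x (−0.15), Rps6 (−0.23) and Rpsa (−0.16), and under limma-voom Rpl7 (−0.0095) and Rps6 (−0.0392). With a library left out the ranges that crossed 0 were −0.239 to 0.0566 for Rpl39, −0.0401 to 0.233 for Rpl5, −0.101 to 0.207 for Rpl7, −0.0037 to 0.18 for Rplp0, −0.234 to 0.0414 for Rps27, −0.0855 to 0.184 for Rps4x, −0.107 to 0.135 for Rps6 and −0.287 to 0.786 for the log2 ratio of Rpl36al to Rpl36a. The cause was not tested. The simulated fit recovered 9.68% of 1.5-fold and 76.6% of 4-fold changes, which limits what 4 libraries a group can show.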
